A study of Rattus norvegicus with 4 samples.

Results

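Genes for the proteins of the mitochondrial ribosome were followed in cultured smooth muscle cells of the rat aorta, the cell type that contracts the artery wall, after exposure to the BB form of platelet-derived growth factor (PDGF-BB), which drives such cells to divide. Members were all genes with a single annotated symbol of the form Mrpl or Mrps followed by a number, and for each the probe set of highest mean intensity over the 4 arrays was taken. This gave 73 genes of 12922 measured, 46 named for the large and 27 for the small subunit. The PDGF-BB group received PDGF-BB at 30 ng/mL for 3 h (2 arrays), and the other received its vehicle, acetic acid (10 mM) with albumin (0.2%), for the same time (2 arrays). All cells had been plated in 10% fetal bovine serum for 24 h and then deprived of serum and insulin for 72 h, so the vehicle cells were starved cells and not cells in serum. Affymetrix arrays measured biotin-labelled cRNA made from total RNA, and the values are linear intensities per probe set, a group of probes for 1 transcript. Whether arrays of 1 group stand for separate cultures is not said in the labels, and the p-values therefore reflect array-to-array spread that may be technical. In such bulk RNA, fewer cells of a type and less RNA per cell cannot be told apart.

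The mitochondrial ribosome translates the few messenger RNAs encoded by mitochondrial DNA, all of them for subunits of the respiratory chain and the ATP synthase. Its RNAs come from mitochondrial DNA, while every protein of both subunits is encoded in the nucleus, made in the cytosol and imported. Some of these proteins have counterparts in the bacterial ribosome and others are found only in mitochondria. The study looked for genes that respond early as these cells change their phenotype, and the comparison shows where the mitochondrial set stood at that time.

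Median intensity over all probe sets was 144 and 132 on the PDGF-BB arrays, against 145 and 148 on the vehicle arrays. The Pearson correlation of log2 values across probe sets, which are not independent replicates, was 0.993 within PDGF-BB and 0.995 within vehicle, and 0.959 to 0.964 between the groups. The 8 smooth muscle markers had a median intensity of 2766, against 296 over all genes, but ranged from 195 to 11251 in mean intensity. Acta2, the brightest, was at 10953 and 10802 with PDGF-BB and at 11302 and 11946 with vehicle. Myh11 was at 304 and 245 with PDGF-BB and at 462 and 445 with vehicle. Lmod1 was at 574 and 522 with PDGF-BB and at 1929 and 1707 with vehicle. Smtn was at 2639 and 2548 with PDGF-BB and at 4709 and 4291 with vehicle. The 5 endothelial markers measured summed to 69.9 and 67.5 with PDGF-BB and 57.0 and 63.3 with vehicle, and each averaged under the yardstick of background, 80.3, which is the highest intensity of any Bacillus control probe set. The 6 macrophage markers measured summed to 408 and 462 with PDGF-BB and 436 and 391 with vehicle. Of these, Itgam, Ptprc, Cd68 and Csf1r were under the yardstick on all arrays, and Lyz2 was at 196 to 219. Of 6 fibroblast markers Col1a1, which smooth muscle cells also make, was at 11137 and 10447 with PDGF-BB and 11912 and 11933 with vehicle, and the other 5 were at most 109. None of the endothelial, macrophage or fibroblast markers passed the test used below. Of 8 smooth muscle markers 3 fell, Lmod1, Smtn and Myh11, and 0 rose, where 15.3% of all genes were called lower and 12.4% higher. The part of other cell types in the results was not tested. Every one of the 73 members lay above the yardstick on all 4 arrays.

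Of the 73 mitochondrial ribosomal protein genes 10 fell after 3 h of PDGF-BB, 1 rose and 62 did not pass the test, an adjusted p under 0.05 by limma, a linear model fitted to all probe sets. The log2 fold change, PDGF-BB minus vehicle on log2(intensity + 16), was below 0 in 55 of 73 members, or 75.3%, against 53.8% of all genes. Its median was -0.17, against -0.030 over all genes. With array medians subtracted these medians were -0.093 and 0.047. The change was small in nearly all of them: 66 of 73 members had a log2 fold change between -0.5 and 0.5, and 2 of 73 reached a 2-fold difference, or 2.74%, against 8.43% of all genes. Of all genes, 15.3% were called lower and 12.4% higher by the same rule, 27.7% in either direction. With these settings the called share that was lower, 13.7% of the members, was near that of all genes, and the called share that was higher, 1.37%, was below it. The first depended on the setting. After quantile normalization 31 of 73 members were called lower, beside 22.2% of all genes, and with an offset of 1 only 4 of 73, beside 10.3%. Both PDGF-BB arrays lay below both vehicle arrays in 46 members and above both in 13, and the groups overlapped in 14. Over all genes, 37.8% had both PDGF-BB arrays below and 29.7% both above.

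**Figure D1:**
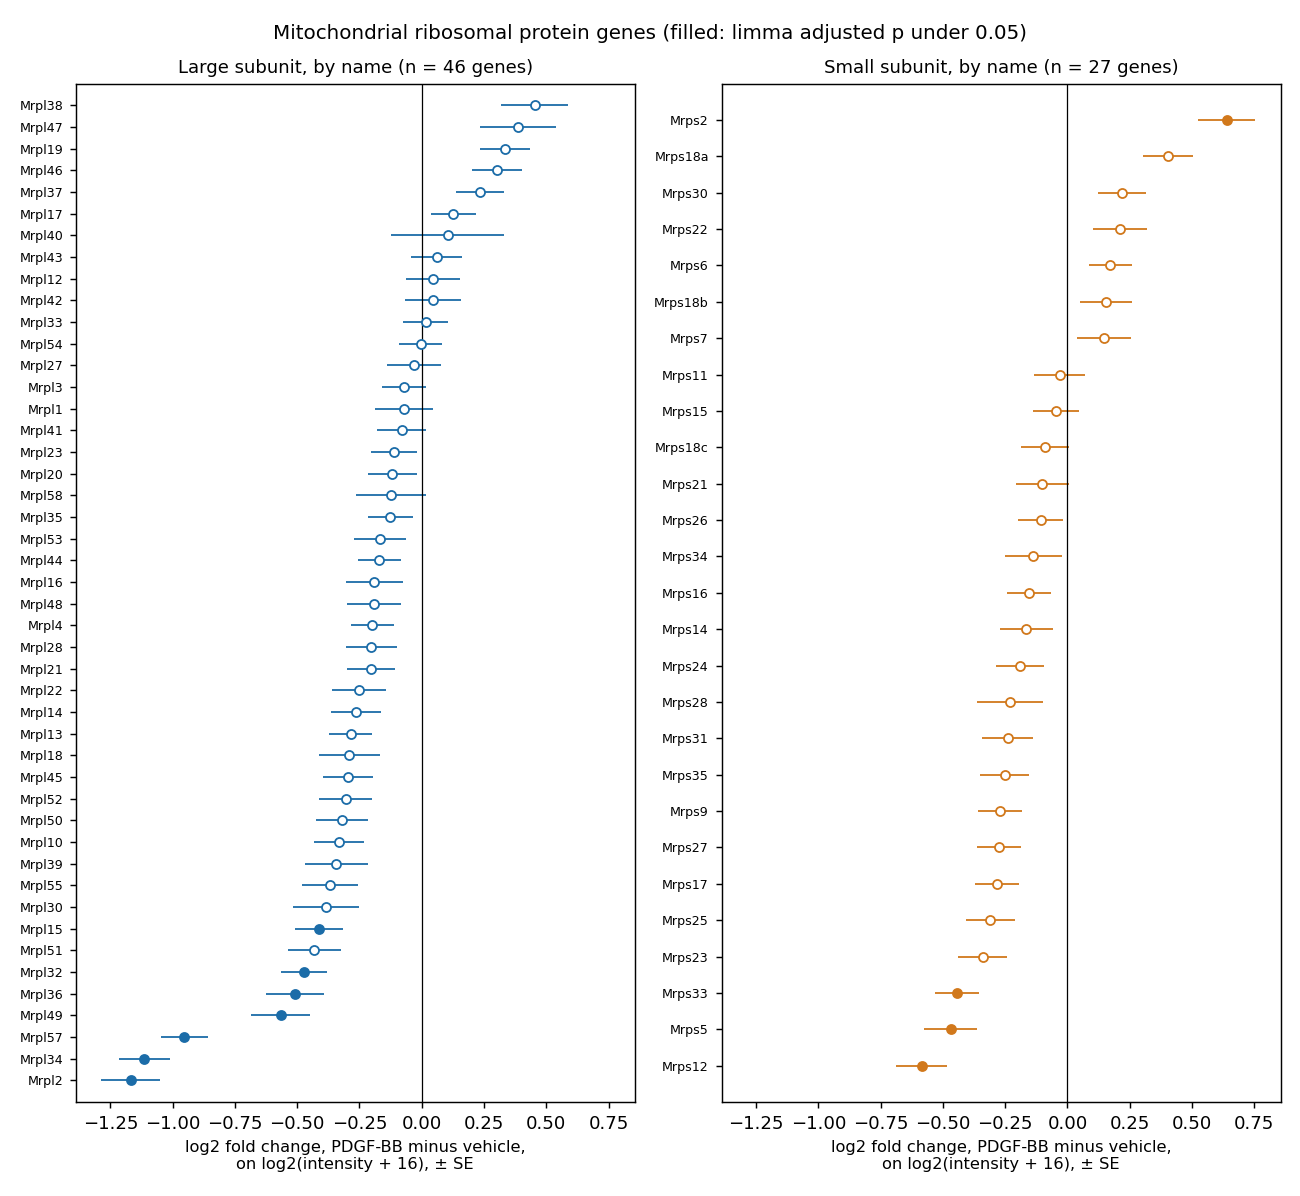
Log2 fold change of each member, PDGF-BB minus vehicle on log2(intensity + 16), with its standard error from limma (2 arrays in each group), split by the subunit in the gene's name. Filled points have an adjusted p under 0.05; 35 of 46 large-subunit genes and 20 of 27 small-subunit genes lie left of 0.

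Both subunits had medians below 0. Of the 46 large-subunit genes 7 fell, 0 rose and 39 did not pass, with a median log2 fold change of -0.19 and a range of -1.17 to 0.45. At an unadjusted p under 0.05, 16 of them were lower and 3 higher, and of the small-subunit genes 8 were lower and 2 higher, where 23% of all genes were lower and 18.5% higher. Of the 27 small-subunit genes 3 fell, 1 rose and 23 did not pass, with a median of -0.15 and a range of -0.58 to 0.64. The medians differed by -0.037, large minus small, which was -0.070 on PDGF-BB replicate 1 and -0.020 on replicate 2, so the gap was no larger than the difference between these arrays. Structures of the mammalian ribosome place 2 proteins with small-subunit names, those of Mrps18a and Mrps30, in the large subunit. Counting them there, the medians were -0.18 for the large and -0.17 for the small subunit. The 42 members with a bacterial counterpart had a median of -0.19, with 7 lower and 1 higher, and the 31 without one a median of -0.17, with 3 lower and 0 higher.

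The members had a median intensity of 956, against 296 over all genes. At such intensities most genes were lower on PDGF-BB replicate 2 than on replicate 1. Replicate 2 was the lower array in 71 of 73 members, and likewise in 94.4% of the 1882 other genes whose mean intensity lay between the members' 25th and 75th percentile, 667 to 1372. Set against the vehicle mean, the members' median was -0.11 on PDGF-BB replicate 1 and -0.26 on replicate 2, against 0.029 and -0.12 for the other genes of like intensity. The distance between members and other genes of like intensity was therefore -0.14 on replicate 1 and -0.14 on replicate 2. The upper quartile of the log2 fold change was -0.0044 in the members and 0.33 in the genes of like intensity, and the lower quartiles were -0.31 and -0.33. Among the genes of like intensity 20.9% were called higher and 18.5% lower, 39.4% in either direction. In 37.2% of them both PDGF-BB arrays lay above both vehicle arrays, as in 17.8% of the members, and 43.8% had both PDGF-BB arrays below both vehicle arrays, a pattern that 63.0% of the members had. These are descriptions of a set of genes, which are not replicates, and no list test was run. With other scaling 6 members were called higher and 31 lower after quantile normalization, where 14.7% of all genes were higher and 22.2% lower, 6 and 15 after cyclic loess (16.4% and 17.4% of all genes), and 6 and 11 with array medians subtracted (17.3% and 15.6%). They were 0 and 4 with an offset of 1 (9.72% and 10.3%), 4 and 19 with an offset of 64 (15.3% and 19.9%), and 6 and 24 with dim probe sets left out (22.3% and 29.7% of the 8917 genes then tested). They were 3 and 22 with an intensity trend in the variance (16.2% and 20.3%), 2 and 11 with the mean over probe sets (14.2% and 17.5%), and 1 and 4 with the replicate number as a covariate (10.6% and 12.6%).

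**Figure D2:**
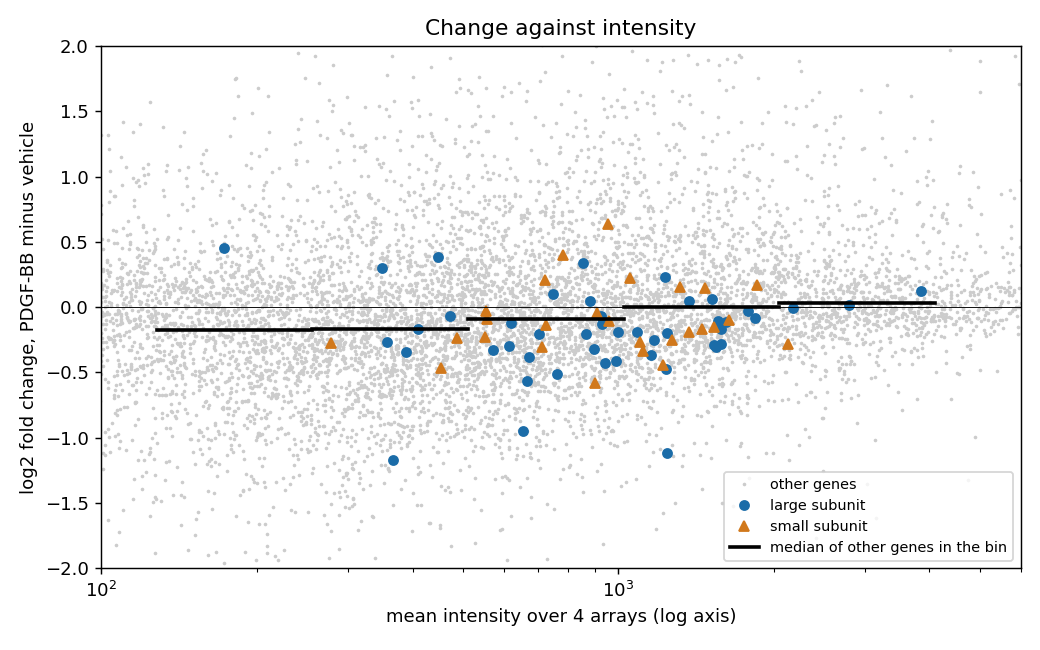
Log2 fold change, PDGF-BB minus vehicle, against mean intensity over 4 arrays for large-subunit members (circles), small-subunit members (triangles) and other genes (grey dots; genes outside the axes are not drawn). Bars give the median of the other genes in each doubling of intensity, which was -0.16 from 256 to 512, -0.087 from 512 to 1024 and -0.00013 from 1024 to 2048, where the members' medians were -0.25, -0.19 and -0.17.

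**Figure D3:**
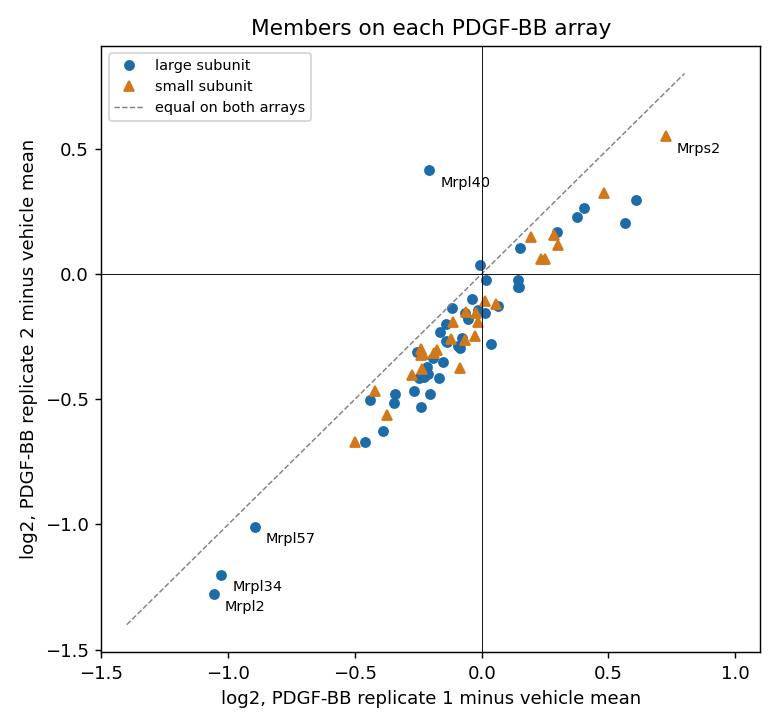
Each member on the 2 PDGF-BB arrays, as log2(intensity + 16) minus the vehicle mean, replicate 1 on the horizontal and replicate 2 on the vertical axis. All but 2 of the 73 points lie below the dashed line of equal values, and Mrpl40 stands apart above it.

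The 3 largest decreases were in large-subunit genes. Mrpl2, which encodes the counterpart of bacterial L2, a protein next to the peptidyl transferase centre, had intensities of 238 and 202 with PDGF-BB, against 495 and 533 with vehicle. Both PDGF-BB arrays were well below both vehicle arrays, and the log2 fold change was -1.17 (standard error 0.12, adjusted p 0.00588 by limma). Mrpl34, the counterpart of bacterial L34, had 827 and 731 with PDGF-BB, against 1719 and 1683 with vehicle, again without overlap, a log2 fold change of -1.11 (standard error 0.10, adjusted p 0.00499 by limma). Mrpl57, which encodes a protein with no bacterial counterpart, had 460 and 424 with PDGF-BB and 865 and 872 with vehicle. Its groups did not overlap and it fell by 0.95 on the log2 scale (standard error 0.09, adjusted p 0.00552 by limma). A second, dimmer probe set for Mrpl57 had 318 and 273 with PDGF-BB and 407 and 361 with vehicle, a log2 fold change of -0.36 that did not pass (adjusted p 0.107). With 1 array left out, its group has a single array that is assumed to vary like the other group, with 1 residual degree of freedom, so such values show dependence on an array and are not replicated support. All 3 genes had an adjusted p under 0.05 with either PDGF-BB array left out (0.0297 to 0.0365 by limma). When vehicle replicate 1 was dropped, limma gave an adjusted p of 0.0498 for Mrpl2, 0.0528 for Mrpl34 and 0.0592 for Mrpl57, and with vehicle replicate 2 dropped it gave 0.0543, 0.0496 and 0.0582. Leaving out an array cut the calls over all genes as well. They were 3.8% higher and 2.32% lower without vehicle replicate 1, and 4.06% and 2.5% without vehicle replicate 2. Dropping a PDGF-BB array gave 8.21% and 12.6% (replicate 1) or 8.01% and 6.65% (replicate 2).

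Mrpl49, Mrpl36, Mrpl32 and Mrpl15 of the large subunit fell by less. Mrpl49, for a protein specific to mitochondria, had 575 and 496 with PDGF-BB and 761 and 837 with vehicle, a log2 fold change of -0.57 (standard error 0.12, adjusted p 0.0345 by limma). Its second probe set had a log2 fold change of -0.34 and did not pass (adjusted p 0.103). Mrpl36, the counterpart of the small zinc-binding bacterial protein L36, had 681 and 575 with PDGF-BB and 883 and 911 with vehicle, a log2 fold change of -0.51 (standard error 0.12, adjusted p 0.0440 by limma). Mrpl32, whose protein is cut by the m-AAA protease of the inner membrane before it enters the ribosome, had 1056 and 1008 with PDGF-BB and 1394 and 1481 with vehicle. In it too the groups were apart, with a log2 fold change of -0.47 (standard error 0.09, adjusted p 0.0285 by limma). Mrpl15, the counterpart of bacterial L15, had 890 and 807 with PDGF-BB and 1147 and 1119 with vehicle, a log2 fold change of -0.41 (standard error 0.10, adjusted p 0.0461 by limma). In all of these the groups were apart by less than a factor of 2. Without PDGF-BB replicate 1 Mrpl36 passed (limma adjusted p 0.0439) and Mrpl49, Mrpl32 and Mrpl15 did not (0.0543, 0.0625 and 0.0574). With any of the other arrays left out, the limma adjusted p of these genes was 0.0846 to 0.249.

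In the small subunit, Mrps12, Mrps5 and Mrps33 fell. Mrps12, the counterpart of bacterial S12, a protein of the decoding centre, had 763 and 677 with PDGF-BB, against 1079 and 1094 with vehicle. Its log2 fold change was -0.58 (standard error 0.10, adjusted p 0.0213 by limma). Mrps5, the counterpart of bacterial S5, had 405 and 352 with PDGF-BB and 531 and 526 with vehicle, a log2 fold change of -0.47 (standard error 0.11, adjusted p 0.0418 by limma). Mrps33, which has no bacterial counterpart, had 1050 and 1015 with PDGF-BB and 1448 and 1372 with vehicle, a log2 fold change of -0.44 (standard error 0.09, adjusted p 0.0315 by limma). None of the 3 had overlapping groups. Without PDGF-BB replicate 1, Mrps12 and Mrps5 passed (limma adjusted p 0.0406 and 0.0472) and Mrps33 did not (0.0673). Without PDGF-BB replicate 2 the values were 0.0609, 0.0869 and 0.0870 in the order Mrps12, Mrps5 and Mrps33, without vehicle replicate 1 they were 0.139, 0.216 and 0.218, and without vehicle replicate 2 they were 0.142, 0.201 and 0.163.

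Mrps2, the counterpart of bacterial S2, was the member that rose. It had 1242 and 1095 with PDGF-BB, against 782 and 706 with vehicle, a log2 fold change of 0.64 (standard error 0.11, adjusted p 0.0233 by limma). Its second probe set rose as well, at 265 and 282 with PDGF-BB and 206 and 190 with vehicle, a log2 fold change of 0.44 (limma adjusted p 0.0385). The call on the brighter probe set ended when any array was left out, with limma adjusted p-values of 0.0724 and 0.0580 without PDGF-BB replicate 1 or 2 and of 0.107 and 0.149 without vehicle replicate 1 or 2.

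**Figure D4:**
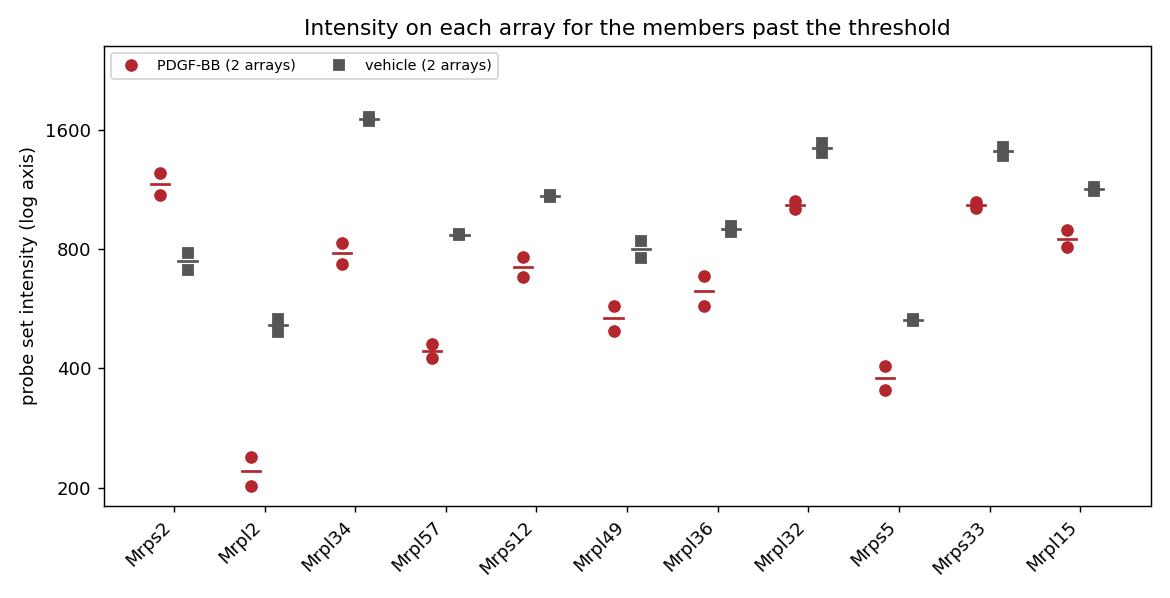
Probe set intensity on each array (log axis) for the 11 members with a limma adjusted p under 0.05: PDGF-BB circles on the left and vehicle squares on the right of each gene, with a line at each mean (n = 2). In all 11 the groups are apart; Mrps2 is higher with PDGF-BB and the other 10 are lower.

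Promoter sequences are shown for the 3 genes that fell most, for Mrps2, which rose, and for Mrpl36, the called gene whose promoter held the most kinds of the motifs searched. They are from RefSeq, rat assembly GRCr8, the 250 bases before the annotated start of each gene, written 5′ to 3′ on the gene's own strand, and capitals mark motif matches. The positions are chr9:21834608-21834857, minus strand for Mrpl2, chr16:18186197-18186446, plus strand for Mrpl34, chr15:36086207-36086456, plus strand for Mrpl57, chr1:31795122-31795371, minus strand for Mrpl36 and chr3:32200827-32201076, plus strand for Mrps2.
Mrpl2: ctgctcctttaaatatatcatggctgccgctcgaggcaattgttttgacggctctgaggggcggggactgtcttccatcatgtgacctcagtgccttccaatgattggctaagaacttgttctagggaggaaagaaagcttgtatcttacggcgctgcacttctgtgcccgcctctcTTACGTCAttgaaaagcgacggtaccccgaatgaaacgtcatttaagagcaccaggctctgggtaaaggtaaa
Mrpl34: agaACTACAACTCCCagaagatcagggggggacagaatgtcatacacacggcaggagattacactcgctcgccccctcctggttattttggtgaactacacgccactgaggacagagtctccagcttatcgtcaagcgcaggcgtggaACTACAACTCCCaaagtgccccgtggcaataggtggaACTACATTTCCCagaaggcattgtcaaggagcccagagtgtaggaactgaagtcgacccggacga
Mrpl57: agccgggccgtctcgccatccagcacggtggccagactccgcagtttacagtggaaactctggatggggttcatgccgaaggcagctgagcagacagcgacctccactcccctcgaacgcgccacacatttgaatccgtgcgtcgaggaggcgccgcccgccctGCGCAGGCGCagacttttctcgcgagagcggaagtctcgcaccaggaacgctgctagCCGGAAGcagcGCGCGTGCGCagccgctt
Mrpl36: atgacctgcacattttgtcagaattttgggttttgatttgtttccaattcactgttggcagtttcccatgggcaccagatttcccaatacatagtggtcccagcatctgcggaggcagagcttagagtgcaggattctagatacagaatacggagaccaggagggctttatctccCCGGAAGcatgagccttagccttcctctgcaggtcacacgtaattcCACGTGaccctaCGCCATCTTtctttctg
Mrps2: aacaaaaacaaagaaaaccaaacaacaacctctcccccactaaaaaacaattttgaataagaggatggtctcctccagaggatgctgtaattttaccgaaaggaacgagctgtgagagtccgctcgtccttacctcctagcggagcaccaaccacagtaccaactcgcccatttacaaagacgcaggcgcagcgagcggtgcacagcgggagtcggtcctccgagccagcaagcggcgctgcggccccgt
Capitals mark a match to TGACGTNA on the other strand, a CREB and ATF site, in Mrpl2. They mark 3 matches to a ZNF143 motif, ACTACA and TCCC with any 2 bases between them, bound by a zinc-finger factor, in Mrpl34. In Mrpl57 they mark 1 match to CCGGAAG, an ETS-family site, and 2 to a motif of nuclear respiratory factor 1 (NRF1), GCGCA and GCGC with any 1 base between them. The NRF1 match nearer the start of Mrpl57 is on the other strand. In Mrpl36 they mark CCGGAAG, AAGATGGCG on the other strand, a YY1 site, and CACGTG, the E-box bound by MYC and other factors. No match to any of these 6 motifs was in the Mrps2 window.

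RefSeq promoters of 300 bases, 250 before and 50 after the start, were found for 59 of the 73 members, 61 windows in all, and were searched on both strands. CCGGAAG was in 32.8% of the members' windows, against 8.75% of all 33469 windows. AAGATGGCG was in 13.1% of the members' windows against 1.73% of all, the NRF1 motif in 14.8% against 4.25%, and CACGTG in 9.84% against 6.42%. For TGACGTNA the shares were 6.56% and 3.25%, and for the ZNF143 motif 6.56% and 1.75%. All windows were counted, whether or not their gene was measured or lay above background here. Shares among genes of like intensity were not computed, so these values do not set the members apart from other expressed genes. Of the 8 windows of members called lower, 2 held CCGGAAG, 2 the NRF1 motif and 1 each of the other 4 motifs, so no motif was common to the genes that fell. A match describes the letters in the window and does not show that a factor binds there.

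Several members that did not pass had higher values with PDGF-BB. Mrps18a, one of the genes whose protein lies in the large subunit, had 943 and 843 with PDGF-BB and 671 and 671 with vehicle, a log2 fold change of 0.40 (standard error 0.10, adjusted p 0.0518 by limma). Mrps30, the other, had 1186 and 1082 with PDGF-BB and 991 and 950 with vehicle, a log2 fold change of 0.22 (standard error 0.10, adjusted p 0.185 by limma). In both genes the PDGF-BB arrays lay above the vehicle arrays. Mrpl38 had 227 and 179 with PDGF-BB and 142 and 144 with vehicle, a log2 fold change of 0.45 (standard error 0.14, adjusted p 0.0804 by limma), the largest in size of any member that did not pass. Without PDGF-BB replicate 2 its limma adjusted p was 0.0498, and without any other array 0.108 to 0.288. Mrpl19 had 1001 and 906 with PDGF-BB and 730 and 774 with vehicle, also without overlap, and a log2 fold change of 0.33 (adjusted p 0.0814 by limma). Mrpl46, Mrpl37, Mrps22 and Mrps6 likewise had both PDGF-BB arrays above both vehicle arrays, with log2 fold changes of 0.30, 0.23, 0.21 and 0.17, and none passed (limma adjusted p 0.105 to 0.246). Under each of the 3 other scalings, Mrps18a (limma adjusted p 0.0142 to 0.0212), Mrpl38 (0.0228 to 0.0254), Mrpl19 (0.0237 to 0.0411) and Mrpl46 (0.0217 to 0.0347) were called higher. Just outside the threshold on the lower side, Mrpl51 had 850 and 753 with PDGF-BB and 1053 and 1116 with vehicle, a log2 fold change of -0.43 (standard error 0.11, adjusted p 0.0507 by limma), and its other 3 probe sets gave -0.16 to -0.35. Mrpl51 was called lower under each of the 3 other scalings (limma adjusted p 0.0104 to 0.0376). With the settings of the report, the smallest change called was that of Mrpl15, 0.41 in size. Mrps36 was not analysed here.

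None of the members in the following account of sites within the ribosome passed the test. Mrpl12, the stalk protein that recruits translation factors and also binds the mitochondrial RNA polymerase, had 1492 and 1295 with PDGF-BB, against 1344 and 1346 with vehicle. Its groups overlapped, with a log2 fold change of 0.047 (standard error 0.11, adjusted p 0.798 by limma). Mrpl10, the protein that holds the stalk, had 536 and 476 with PDGF-BB and 644 and 636 with vehicle, a log2 fold change of -0.33 (standard error 0.10, adjusted p 0.0845 by limma) without overlap. At the exit of the peptide tunnel, Mrpl22 and Mrpl23 had log2 fold changes of -0.25 and -0.11 and Mrpl45, which anchors the ribosome to the inner membrane, -0.29, and Mrpl47, the counterpart of bacterial L29, 0.39. None of these 4 passed (limma adjusted p 0.109 to 0.460). Mrpl58, an adapted release factor built into the large subunit, had a log2 fold change of -0.12 (standard error 0.14, adjusted p 0.590 by limma). In the small subunit, Mrps17 had 1974 and 1863 with PDGF-BB and 2312 and 2359 with vehicle, a log2 fold change of -0.28 (limma adjusted p 0.0918), and Mrps27, a pentatricopeptide-repeat protein, had 258 and 242 with PDGF-BB and 307 and 304 with vehicle, a log2 fold change of -0.27 (limma adjusted p 0.0980). Mrpl17, at 4078 and 3954 with PDGF-BB and 3570 and 3785 with vehicle, had a log2 fold change of 0.13 (standard error 0.09, adjusted p 0.382 by limma). The least certain member was Mrpl40, at 613 and 951 with PDGF-BB and 738 and 683 with vehicle, where the PDGF-BB arrays lay on opposite sides of both vehicle arrays and the standard error was 0.23, against a median of 0.10 over members.

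For 14 members the array carried several probe sets, 18 beside the brightest ones. In 11 of the 14 all probe sets had the same sign, but in 3 of these, Mrps15, Mrps24 and Mrps26, the other probe set averaged below the yardstick of background, as did 1 of the other Mrpl37 probe sets. The exceptions Mrpl40, Mrps14 and Mrps18c were chosen for mention after their values were seen. Limma called some but not all probe sets in 2 of them, Mrpl49 and Mrpl57, and all of them in Mrps2. The Mrps14 probe sets had log2 fold changes of -0.17 and 0.095, and neither passed. On the brighter one both PDGF-BB arrays lay below both vehicle arrays, and on the other the groups overlapped.

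The genes that act on the mitochondrial ribosome were read beside its proteins, and beside the 15.3% of all genes called lower and 12.4% called higher. Of 12 genes of mitochondrial tRNA charging measured, 7 fell, 0 rose and 5 did not pass, with a median log2 fold change of -0.46, and both PDGF-BB arrays lay below both vehicle arrays in 11. The list holds 11 aminoacyl-tRNA synthetases, of which 6 fell (median -0.45), and Qrsl1, a subunit of the amidotransferase that completes glutaminyl-tRNA. These are mostly dim genes, with a median intensity of 170 and a range of 61.0 to 595. Of the other genes between 128 and 256 in intensity, which is only part of that range, 27.5% were called lower and 52.5% had both PDGF-BB arrays below. Cars2, which charges the cysteine tRNA, had 62.4 and 59.3 with PDGF-BB, against 210 and 189 with vehicle, a log2 fold change of -1.49 (standard error 0.10, adjusted p 0.00249 by limma), and Vars2, for valine, had 64.9 and 67.3 with PDGF-BB, against 146 and 147 with vehicle, a log2 fold change of -0.99 (standard error 0.09, adjusted p 0.00441 by limma). The PDGF-BB values of 4 of the 7 genes that fell, Cars2, Vars2, Nars2 and Ears2, were below the yardstick of 80.3, so the size of these decreases, the count and the median rest in part on values near background. Of 8 factors of mitochondrial translation 4 fell, 0 rose and 4 did not pass, with a median of -0.25. Oxa1l, the insertase that receives the new chains at the inner membrane, had 655 and 621 with PDGF-BB and 1328 and 1377 with vehicle, a log2 fold change of -1.07 (standard error 0.09, adjusted p 0.00413 by limma). Mtfmt, which formylates the initiator methionyl-tRNA, and Mtif2, the initiation factor that binds it, had log2 fold changes of -1.08 and -0.85 (limma adjusted p 0.00541 and 0.0102). Mrrf, the ribosome recycling factor, had 213 and 223 with PDGF-BB and 344 and 287 with vehicle, a log2 fold change of -0.50 (limma adjusted p 0.0498), a call that was lost under each of the 3 other scalings (0.0864 to 0.116), with an offset of 1 (0.0856) and without any 1 array (0.110 to 0.249). Of 23 assembly factors 6 fell, 1 rose and 16 did not pass, with a median of -0.27. Mtg1 and Gtpbp10, GTPases of large-subunit assembly, had log2 fold changes of -0.94 and -1.09 (limma adjusted p 0.00620 and 0.00921). Mrm3, an rRNA methyltransferase, rose by 1.04 (limma adjusted p 0.00777). Rpusd3, another assembly factor that fell, had 66.8 and 63.7 with PDGF-BB, below the yardstick. Median intensity was 450 for the translation factors and 398 for the assembly factors. The share called lower was 50% and 26.1% in that order, against 27.5% of other genes between 256 and 512 in intensity, whose median was -0.16. Mean intensities ran from 267 to 1158 in the translation factors and from 18.5 to 4274 in the assembly factors, so this reference covers only part of each list. Without vehicle replicate 1 the called counts were 1 lower tRNA-charging gene (Cars2), 1 lower translation factor (Oxa1l) and 0 assembly factors, and without vehicle replicate 2 they were 2, 1 and 1, the last being Mrm3.

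Of 11 nuclear genes known to regulate mitochondrial biogenesis, 3 rose (Myc, Pprc1 and Esrra), 1 fell and 7 did not pass, with a median log2 fold change of 0.21, where 12.4% of all genes and 20.9% of those of the members' intensity were called higher. Myc had 2803 and 2956 with PDGF-BB, against 831 and 850 with vehicle, a log2 fold change of 1.76 (limma adjusted p 0.00133). Pprc1, a growth-induced relative of the PGC-1 coactivators, had 1411 and 1327 with PDGF-BB and 684 and 661 with vehicle, a log2 fold change of 1.01 (standard error 0.09, adjusted p 0.00470 by limma). Nrf1, which encodes nuclear respiratory factor 1, had 333 and 293 with PDGF-BB and 250 and 241 with vehicle (log2 fold change 0.33, limma adjusted p 0.0908). Gabpa, the DNA-binding subunit of the ETS-family factor GABP, had overlapping groups (log2 fold change -0.11, limma adjusted p 0.595), and Gabpb1, its partner, fell by 0.39 (limma adjusted p 0.0427). Ppargc1a was at 8.15 to 12.1 on all arrays, below the yardstick. Without vehicle replicate 1 or 2, Myc was the regulator still called, and the limma adjusted p of Pprc1 was 0.0517 and 0.0531. Of 16 genes for mitochondrial DNA and RNA, 2 fell, 1 rose and 13 did not pass, with a median of -0.071, shares near those of all genes. Top1mt, the mitochondrial topoisomerase, had a log2 fold change of -0.63 (limma adjusted p 0.0127), Ssbp1, the single-stranded DNA-binding protein, of -0.49 (0.0398), and Elac2, a tRNA-processing nuclease, of 0.44 (0.0461), and none of these calls held with either vehicle array left out.

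**Figure D5:**
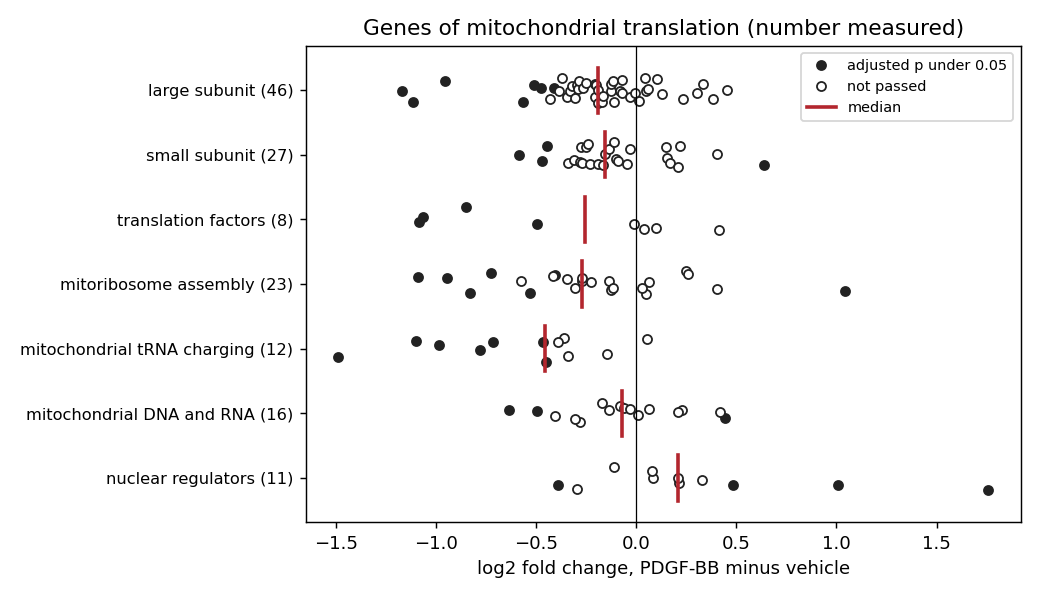
Log2 fold change, PDGF-BB minus vehicle, of the genes in each list, with the number measured in brackets. Filled points have a limma adjusted p under 0.05 and the bar is the median, which was -0.46 for the tRNA-charging genes and 0.21 for the nuclear regulators.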

How the data were processed

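RNA from 2 PDGF-BB and 2 vehicle samples, grouped by their titles, was measured on Affymetrix arrays. The authors deposited linear intensities per probe set, judged from the values. How they corrected the background and scaled the arrays is not given in the sources used here. Of 23764 probe sets, 57 control probe sets were left out and 23707 were tested. A platform annotation dated 2016 gave 1 symbol for 17279 of them, several for 373 and none for 6055. All 73 members matched a RefSeq gene by identifier, and 0 symbols changed.

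Values were tested as log2(intensity + 16) by the moderated two-sided test of limma 3.58.1 (lmFit, eBayes; R 4.3.3). P-values were adjusted by the Benjamini-Hochberg method across all 23707 probe sets, and 0.05 was the threshold. The offset understates the change of dim genes. The residual degrees of freedom were 2 and those of the variance prior 2.40. The table gives no detection calls, so a rough yardstick of background, 80.3, was set by the brightest of 27 Bacillus controls. The number of arrays limits the precision.

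The members, lists and alternatives were chosen with earlier results of these data known. Members may all be named. Given in full were the 10 largest called changes in each direction (10 decreases and 1 increase existed), the lowest and highest intensity of each subunit, members whose probe sets were called differently, Mrpl12, Mrps18a and Mrps30. From each list at most 4 genes, those of smallest p, could be named, and Myc, Nrf1, Gabpa, Ppargc1a and Pprc1. Qrsl1, Ears2 and Csf1r were named after their values were seen. Acta2, Lyz2, Chchd1 and Ptcd3 were also named outside this rule. Same-numbered arrays had deviations from their group means that correlated at -0.098 across probe sets, so the numbers were not taken as pairs. Alternatives were offsets of 1 and 64, array medians subtracted, quantile and cyclic loess normalization, a filter on dim probe sets, the mean over probe sets, a variance trend, the replicate number as a block, each array left out, subunits by structure, and a wider range of like intensity.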

Additional observations from a re-analysis of the deposited data

How the results depend on the processing

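The count of members called depended on the setting more than their median did. With all arrays, 1 member was higher and 10 lower. The counts were 0 and 4 with an offset of 1, 4 and 19 with an offset of 64, 6 and 11 with array medians subtracted, 6 and 31 after quantile normalization, 6 and 15 after cyclic loess, 6 and 24 with dim probe sets left out, 3 and 22 with an intensity trend in the variance, and 2 and 11 with the mean over probe sets. With the replicate number as a block they were 1 and 4. Leaving out 1 array gave 0 to 1 higher and 1 to 6 lower. The 10 members called lower were also lower under each of these settings with all arrays except the offset of 1 and the block, where Mrpl2, Mrpl34, Mrpl57 and Mrps12 remained. The mitoribosomal proteins with other names, 5 beside the members (Dap3, Gadd45gip1, Aurkaip1, Chchd1 and Ptcd3), added no call with the settings of the report, where all 5 had log2 fold changes below 0. Dap3 was called lower under the 3 other scalings, the offset of 64, the dim filter, the trend and the mean over probe sets (limma adjusted p 0.0112 to 0.0444). Over all genes the calls were 491 to 1061 higher and 300 to 1631 lower with 1 array left out, against 1603 and 1971 with all arrays. By scaling, they were 1901 higher and 2874 lower after quantile normalization (14.7% and 22.2% of genes), 2121 and 2242 after cyclic loess (16.4% and 17.4%) and 2234 and 2010 with array medians subtracted (17.3% and 15.6%). The shares higher and lower were 9.72% and 10.3% with an offset of 1, and 15.3% and 19.9% with an offset of 64. With dim probe sets left out they were 22.3% and 29.7% of the 8917 genes tested. They were 16.2% and 20.3% with the variance trend, 14.2% and 17.5% with the mean over probe sets, and 10.6% and 12.6% with the block.

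The members' median log2 fold change, -0.17, was -0.093 with array medians subtracted (all genes 0.047) and -0.26 to -0.11 with 1 array left out. Relative to genes of like intensity, the difference of -0.13 was -0.11 after quantile normalization, -0.14 after cyclic loess, -0.14 with the mean over probe sets, -0.10 with the wider range of intensity, and -0.144 to -0.135 with 1 array left out. The difference between the subunits, -0.037, was -0.0092 after cyclic loess and -0.070 to -0.0067 with 1 array left out. Signs turned for 6 members with array medians subtracted, 5 after quantile normalization, 3 after cyclic loess, 1 with the mean over probe sets and 2 to 8 with 1 array left out. Among the genes given in full or named from the lists, after quantile normalization Mrpl17 was at -0.020 and Mrpl12 at -0.051, and with the mean over probe sets Aif1 was at -0.11. With 1 array left out, Mrpl12 ranged over -0.054 to 0.148, Emcn -0.078 to 0.39, Vwf -0.55 to 0.22, Ppargc1a -0.0032 to 0.16, Pi16 -0.36 to 0.027, Gabpa -0.25 to 0.030 and Cd68 -0.0040 to 0.22. The cause was not tested.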

Other observations

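Several members lie close to a gene that starts upstream and runs the other way. Whether the genes of a pair share a promoter was not tested. In RefSeq GRCr8, 18 members had a gene on the opposite strand whose start lay upstream within 1000 bases, and in 13 cases both genes were measured, 12 distinct pairs because Mrpl46 and Mrps11 are neighbours of each other. The neighbour of Mrpl2 is Klc4, a kinesin light chain gene whose start lies 528 bases away. Klc4 had 394 and 358 with PDGF-BB, against 952 and 961 with vehicle, a log2 fold change of -1.31 (standard error 0.10, adjusted p 0.00294 by limma), beside -1.17 for Mrpl2. Ncapd2, a condensin subunit gene 50 bases from Mrpl51, had 277 and 218 with PDGF-BB and 531 and 532 with vehicle, a log2 fold change of -1.06 (limma adjusted p 0.0107), beside -0.43 for Mrpl51. Of the 13 neighbours measured, 3 were called lower and 0 higher, beside 15.3% and 12.4% of all genes, the third being Pnpla7, 996 bases from Mrpl41, at 38.2 and 38.3 with PDGF-BB and 65.5 and 60.6 with vehicle, below the yardstick of background. No test of the difference within pairs was run. Psma2, a proteasome subunit gene 210 bases from Mrpl32, had a log2 fold change of -0.073, beside -0.47 for Mrpl32. Mrpl46 and Mrps11, 234 bases apart, had log2 fold changes of 0.30 and -0.031, neither of which passed.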
